A study of Homo sapiens with 6 samples.

Results

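The BCL2 family of apoptosis regulators was examined in SW1736, a cell line from a human anaplastic thyroid cancer, through 10 genes chosen by symbol from the 20288 protein-coding genes of the mRNA table. They were the anti-apoptotic BCL2, BCL2L1 and MCL1, the effectors BAX and BAK1, and the BH3-only BCL2L11, PMAIP1, BID, BAD and BBC3. One group of libraries came from cells held for 72 h at 21% O2 (normoxia, n = 3) and the other from cells held for 72 h at 2% O2 (hypoxia, n = 3), with no other treatment named in the labels. The libraries were made from total RNA with CATS, a small RNA method that adds a tail to the 3′ end of each RNA instead of ligating an adapter. A count for a gene is therefore a count of short fragments that aligned to its transcript, and not a count of whole mRNAs. By the study's methods, fragments from parts of mRNAs that do not encode protein were left out of its final analysis, and whether the counts used here still hold them is not given in the sources used here. All cells were of a single line, and nothing in the labels tells whether the numbered replicates were separate cultures, so p-values here measure the spread between libraries.

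Apoptosis through mitochondria is set in motion when BAX and BAK1 assemble into pores in the outer mitochondrial membrane and release cytochrome c. The anti-apoptotic proteins hold BAX, BAK1 and the BH3-only proteins in a groove on their surface. The BH3-only proteins carry stress signals: each inserts a helix, the BH3 domain, into that groove, and some of them also activate BAX and BAK1 directly. Many of these proteins are regulated after the mRNA is made, by phosphorylation, cleavage or degradation, which fragment counts do not measure.

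The helix is the feature by which the proteins bind each other, so its coding sequence is shown for the 10 members. The stretch covers 9 codons of each transcript and begins with the codon of a conserved leucine. Capitals mark that codon and the 2 codons at positions 5 and 6 of the stretch, the last of which encodes an invariant aspartate. Each is printed 5′ to 3′ on the coding strand from GENCODE 44.
BCL2: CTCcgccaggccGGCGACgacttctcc
BCL2L1: CTGagggaggcaGGCGACgagtttgaa
MCL1: TTAcgacgggttGGGGATggcgtgcag
BAX: CTCaagcgcatcGGGGACgaactggac
BAK1: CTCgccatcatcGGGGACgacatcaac
BCL2L11: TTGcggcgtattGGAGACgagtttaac
PMAIP1: CTCaggagatttGGAGACaaactgaac
BID: CTCgcccaggtcGGGGACagcatggac
BAD: CTCcggaggatgAGTGACgagtttgtg
BBC3: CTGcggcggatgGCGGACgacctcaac
Position 5 was a glycine codon in 8 members, a serine codon in BAD and an alanine codon in BBC3. The pattern searched was leucine, any 3 residues, glycine, alanine or serine, and then aspartate. It matched once in each protein except BID, which had a second match, with serine at position 5, nearer its start. By itself the pattern is common, as 33.9% of 18822 proteins held it and 13.4% held the form with glycine.

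In GRCh38 the stretches lie, for the anti-apoptotic genes, at chr18:63318352-63318378 on the minus strand (BCL2), chr20:31721925-31721951 on the minus strand (BCL2L1) and chr1:150578868-150578894 on the minus strand (MCL1). Those of the effectors lie at chr19:48955787-48955813 on the plus strand (BAX) and chr6:33575390-33575416 on the minus strand (BAK1). Those of the BH3-only genes lie at chr2:111150103-111150129 on the plus strand (BCL2L11), chr18:59902673-59902699 on the plus strand (PMAIP1), chr22:17739418-17739444 on the minus strand (BID), chr11:64271625-64271651 on the minus strand (BAD) and chr19:47226582-47226608 on the minus strand (BBC3). All are coding exon sequence without an intron inside. The table holds 1 transcript per gene, so splice forms with opposed roles, such as the long and short products of BCL2L1 or MCL1, could not be told apart. The BAX transcript counted encodes 218 residues, the BAK1 transcript 153 and the BID transcript 241. Whether these are the main forms in these cells was not tested. For BCL2L11 the counted transcript has no entry in GENCODE 44, and the stretch was read from the MANE Select transcript.

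The 6 libraries held 1469151 to 1781753 counts over both tables. Levels are given as normalized CPM, a gene's count relative to the library total after TMM scaling, and a feature was tested only if it passed a filter on low counts. Of 7 thyroid markers only PAX8 (170 to 261 counts) and FOXE1 (28 to 59 counts) passed the filter, while TG, TSHR, SLC5A5 and NKX2-1 had 0 to 11 counts per library. Of the epithelial markers EPCAM and CDH1 had 1 to 6 counts, while KRT8 (26 to 42) and KRT18 (44 to 66) passed the filter. Of the immune markers PTPRC had 1 to 9 counts and CD3E 0 or 1, while CD14 (8 to 24) passed. Of the endothelial markers PECAM1 (8 to 17) and CDH5 (7 to 25) passed the filter, while VWF had 2 to 5 counts. The mesenchymal markers VIM, FN1 and CDH2 had 326 counts or more in each library. VIM was higher in hypoxia (log2 fold change 0.39, adjusted p = 0.0198 from edgeR), and its part in the results below was not tested.

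No member passed the test of hypoxia against normoxia. Of the 10 members, 9 passed the filter and were tested, and edgeR called 0 of them at an adjusted p under 0.05, where 0.758% of the 11082 mRNA features tested were called in either direction. DESeq2 and limma-voom also called 0, where of all 11082 mRNA features DESeq2 called 35 higher and 4 lower, and limma-voom 63 higher and 11 lower. At an unadjusted p under 0.05 edgeR had 1 of 9, PMAIP1, against 10.3% of all mRNA features. The libraries of both groups overlapped for each of the 10 members, BBC3 included though it was not tested. Over all mRNA features tested they did not overlap for 15.3%. At these shares few or no calls, and few or no separated groups, would be usual among so few genes. The median log2 fold change was -0.05 over the 9 members and -0.01 over all mRNA features. By role it was -0.05 for the anti-apoptotic members, -0.05 for the effectors and 0.00 for the BH3-only members that were tested.

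**Figure D1:**
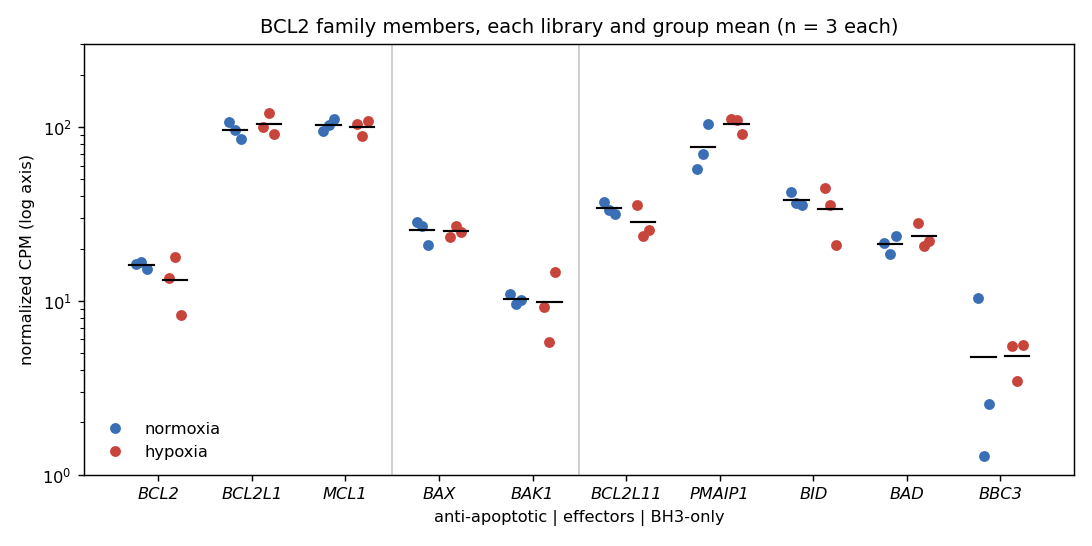
Normalized CPM (log axis) of the 10 members in each library, with normoxia in blue, hypoxia in red and a bar at each group mean (n = 3 each). The colors overlap for each member. PMAIP1 has normoxic libraries spread from 57.7 to 103.5 beside hypoxic ones from 91.0 to 111.5.

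Levels were first compared between members per length, as normalized CPM per kilobase over all 6 libraries. The length was that of the whole transcript, untranslated regions included, as the table gives it, and the order was then repeated per kilobase of coding sequence. Per whole transcript PMAIP1, whose protein NOXA binds MCL1 and speeds its degradation, had the highest level, 46.5 ± 11.5 (SD, n = 6). BCL2L1, which encodes BCL-XL, followed at 38.3 ± 4.78, and its libraries (32.6 to 46.2) lay inside the range of those of PMAIP1 (29.6 to 57.3). MCL1 came next at 25.8 ± 2.10, with all its libraries below all those of BCL2L1. BAD at 19.4 ± 2.81 and BAX at 18.6 ± 2.07 CPM per kilobase could not be ordered, as their libraries overlapped. BAD also overlapped MCL1, and BID at 14.4 ± 3.32 overlapped BAX. The remaining members were lower, with BCL2L11 at 5.96 ± 1.03, BAK1 at 4.55 ± 1.29, BBC3 at 2.60 ± 1.74 and BCL2, the founding member, at 1.96 ± 0.459. Per coding kilobase PMAIP1 (559.6 ± 138), BCL2L1 (143 ± 17.9) and MCL1 (96.5 ± 7.87) again led in this order, here with no overlap between them, but the order below them changed. BCL2L11 (52.5 ± 9.04), lower than BID, BAD and BAX per whole transcript, came next, and overlapped BID (49.7 ± 11.5) and BAD (44.5 ± 6.44). BAX was at 38.7 ± 4.29, BAK1 at 21.9 ± 6.23, BCL2 at 20.4 ± 4.77 and BBC3 at 8.27 ± 5.53 CPM per coding kilobase. On both scales all libraries of BCL2 lay below all those of BCL2L1 and MCL1. Coding lengths are those of the counted transcripts in GENCODE 44, for BCL2L11 of the MANE Select transcript. A splice form with another coding length would give another level, so this order holds for these forms only. Both scales divide the same counts, and the coding scale holds only if these lack fragments of untranslated regions, which is not given. PMAIP1 has 162 coding bases in a transcript of 1948, against 699 of 2610 for BCL2L1 and 1050 of 3932 for MCL1. Its short divisor raised PMAIP1 more than BCL2L1 or MCL1, so its lead per coding kilobase is not independent evidence of rank.

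Among the anti-apoptotic members, BCL2L1 had 106, 95.8 and 85.1 normalized CPM in the normoxic libraries, in the order of their replicate numbers, against 100.5, 120.5 and 91.0 in the hypoxic ones. The groups overlapped, with the highest value in hypoxia replicate 2 and the lowest in normoxia replicate 3. Its log2 fold change was 0.13 (standard error 0.137, 95% interval -0.15 to 0.40, adjusted p = 0.813 from edgeR). BCL2L1 spans chromosome 20 from 31664452 to 31723989 on the minus strand.

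MCL1, a short-lived survival protein, had 95.2, 102.8 and 110.5 normalized CPM in normoxia and 103.6, 88.2 and 107.7 in hypoxia. The lowest library was hypoxia replicate 2, the same library in which BCL2L1 was highest. The log2 fold change was -0.05 (standard error 0.132, 95% interval -0.31 to 0.22, adjusted p = 0.947 from edgeR), the narrowest interval of the 9 members. MCL1 spans chromosome 1 from 150560895 to 150579738 on the minus strand.

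BCL2 rested on 12 to 31 counts per library. It had 16.2, 16.7 and 15.2 normalized CPM in normoxia and 13.5, 17.9 and 8.34 in hypoxia. The normoxic libraries were close together, and the hypoxic ones held both the highest and the lowest value. Hypoxia minus normoxia was -0.26 on the log2 scale (standard error 0.304, 95% interval -0.87 to 0.36, adjusted p = 0.834 from edgeR), and it was -0.028 without hypoxia replicate 3 and -0.55 without hypoxia replicate 2. BCL2 spans chromosome 18 from 63123346 to 63320128 on the minus strand.

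Neither effector passed the test. BAX, on chromosome 19 from 48954815 to 48961798, had 28.5, 27.0 and 21.0 normalized CPM in normoxia and 23.3, 27.1 and 25.0 in hypoxia, so all hypoxic values lay within the normoxic range. Its log2 fold change was -0.02 (standard error 0.232, 95% interval -0.49 to 0.45, adjusted p = 0.987 from edgeR). BAK1, on chromosome 6 from 33572547 to 33580293, had 11.0, 9.64 and 10.2 normalized CPM in normoxia and 9.19, 5.77 and 14.6 in hypoxia. Here the normoxic libraries agreed closely while the hypoxic ones ran from below to above them, on 10 to 21 counts per library. The log2 fold change of BAK1 was -0.09 (standard error 0.369, 95% interval -0.84 to 0.66, adjusted p = 0.967 from edgeR), the widest interval of the members tested.

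PMAIP1, on chromosome 18 from 59899996 to 59904305, had the lowest p of the members. Its raw counts were 89, 109 and 163 in normoxia and 182, 191 and 131 in hypoxia, and its normalized CPM were 57.7, 70.1 and 103.5 against 111.5, 110.1 and 91.0. Hypoxia replicates 1 and 2 were the highest of the 6 libraries, but normoxia replicate 3 lay above hypoxia replicate 3. The group means were 77.1 ± 23.7 and 104 ± 11.5 (SD, n = 3 each).

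For PMAIP1 the fitted log2 fold change was 0.44 (standard error 0.162, 95% interval 0.11 to 0.77), a 1.35-fold difference, and it did not pass the test (unadjusted p = 0.0113, adjusted p = 0.266 from edgeR). By p it ranked 464 of 11082 mRNA features, and 86.6% of them had a smaller absolute log2 fold change. Without normoxia replicate 3 it was called higher (log2 fold change 0.71, adjusted p = 0.0245 from edgeR), and without normoxia replicate 1 it was 0.27. Over the 13 alternatives the adjusted p ran from 0.0245 to 0.770. The spread of PMAIP1 between replicates of a group was 6.30 times the variance that counting alone would give, the highest ratio of the 10 members. Taken by pair of replicates over 10856 to 11094 features, miRNAs included, such a ratio was 2.06 to 3.14.

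**Figure D2:**
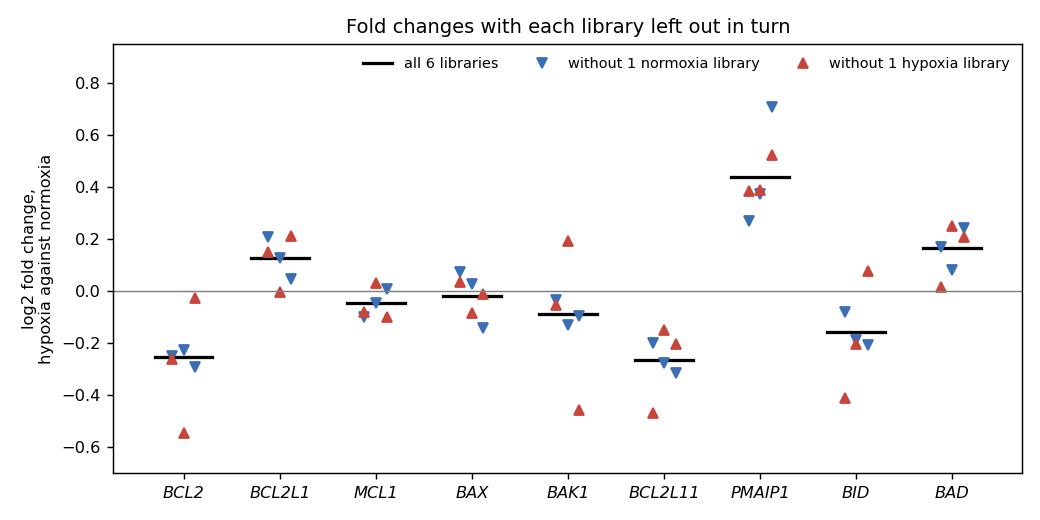
Log2 fold change (hypoxia against normoxia) of the 9 tested members with all 6 libraries (black bars) and with each normoxic (blue) or hypoxic (red) library left out. PMAIP1 stays above 0, from 0.27 to 0.71, as does BAD at lower values, and BCL2 and BCL2L11 stay below 0. BCL2L1, MCL1, BAX, BAK1 and BID cross 0.

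The other BH3-only members showed no common direction. BCL2L11, which encodes the activator BIM, had 36.9, 33.4 and 31.7 normalized CPM in normoxia and 35.5, 23.6 and 25.7 in hypoxia. Hypoxia replicates 2 and 3 lay below all normoxic libraries and hypoxia replicate 1 among them. Its log2 fold change was -0.26 (standard error 0.216, 95% interval -0.70 to 0.17, adjusted p = 0.727 from edgeR). BCL2L11 spans chromosome 2 from 111119378 to 111168444.

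BID links death receptors to mitochondria after cleavage by caspase-8. It had 42.1, 36.6 and 35.6 normalized CPM in normoxia and 44.7, 35.7 and 20.8 in hypoxia, with hypoxia replicate 3 far below the other 5 libraries. The log2 fold change was -0.16 (standard error 0.219, 95% interval -0.60 to 0.29, adjusted p = 0.865 from edgeR) and 0.08 without that library. BID spans chromosome 22 from 17734138 to 17774770 on the minus strand.

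BAD, which is held inactive by phosphorylation when growth factors are present, had 21.4, 18.6 and 23.5 normalized CPM in normoxia and 28.2, 20.8 and 22.2 in hypoxia. Only hypoxia replicate 1 exceeded the normoxic range. Its log2 fold change was 0.16 (standard error 0.246, 95% interval -0.33 to 0.66, adjusted p = 0.876 from edgeR). BAD spans chromosome 11 from 64269830 to 64284704 on the minus strand.

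BBC3, which encodes PUMA, was removed by the filter, with raw counts of 16, 2 and 4 in normoxia and 9, 6 and 8 in hypoxia. Normoxia replicate 1 held the highest value and the other normoxic libraries the lowest. Fitted without the filter, the log2 fold change was 0.01 (95% interval -1.04 to 1.06, adjusted p = 0.994 from edgeR), and it was 1.29 without normoxia replicate 1 (95% interval -0.18 to 2.76, adjusted p = 0.832). The replicates of BBC3 differed by 4.36 times the variance of counting alone, and the interval spans a large change in either direction. BBC3 spans chromosome 19 from 47220822 to 47232766 on the minus strand.

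Pro- and anti-apoptotic members were then summed in each library. The anti-apoptotic members came to 214.6 ± 3.49 normalized CPM in normoxia and 217 ± 9.76 in hypoxia, and the 7 pro-apoptotic members to 211 ± 15.8 and 229.9 ± 26.7 (SD, n = 3 each). The ratio of anti- to pro-apoptotic counts was 1.05, 1.09 and 0.925 in normoxia and 0.843, 1.00 and 1.01 in hypoxia. These overlapped, with the lowest ratio in hypoxia replicate 1 and the highest in normoxia replicate 2. The means were 1.02 ± 0.0876 and 0.951 ± 0.0936. Without PMAIP1, the most abundant pro-apoptotic member, the order of the means turned, to 1.61 ± 0.144 in normoxia and 1.75 ± 0.237 in hypoxia. As sums of fragment counts these ratios weigh long and abundant transcripts most and do not measure protein balance.

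**Figure D3:**
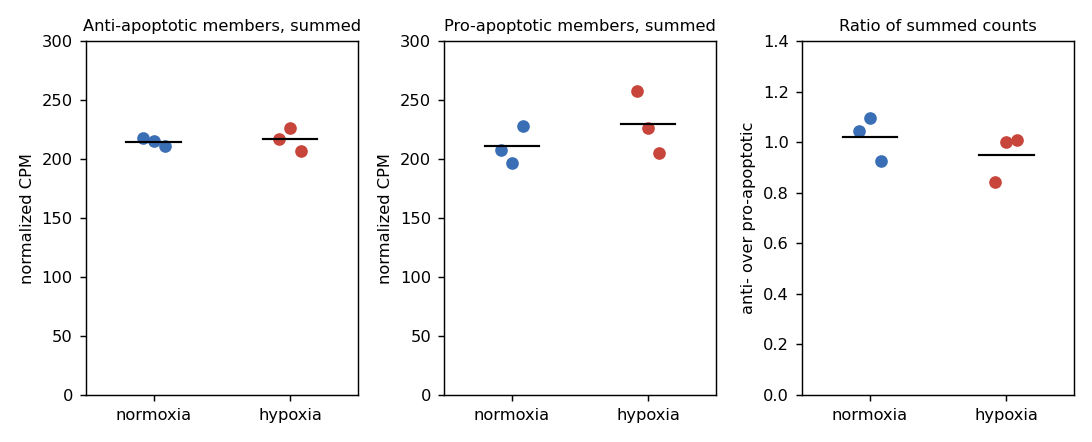
Summed normalized CPM of the 3 anti-apoptotic and the 7 pro-apoptotic members, and the ratio of their summed counts, in each library with group means as bars (n = 3 each). In each panel the groups overlap, and the mean ratio is 1.02 in normoxia and 0.951 in hypoxia.

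Pairs of members that bind each other were set side by side in the same way. The ratio of MCL1 to PMAIP1 counts was 1.65, 1.47 and 1.07 in normoxia and 0.929, 0.801 and 1.18 in hypoxia. Hypoxia replicates 1 and 2 were below all normoxic libraries, and hypoxia replicate 3 lay above normoxia replicate 3. The ratio of BCL2L1 to BAX was 3.78 ± 0.260 in normoxia and 4.13 ± 0.434 in hypoxia, and that of MCL1 to BCL2L11 was 3.05 ± 0.451 and 3.61 ± 0.646 (SD, n = 3 each).

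Of 13 further relatives of the family, 8 were tested and 1 rose in hypoxia, none fell, and the other 7 missed the threshold. The median log2 fold change of the 8 was -0.02. That 1 was BNIP3, a mitochondrial outer membrane protein with an atypical BH3 domain that acts as a mitophagy receptor and is a known target of hypoxia-inducible factors. It had 28.5, 25.7 and 36.8 normalized CPM in normoxia and 82.7, 65.1 and 63.2 in hypoxia. All hypoxic libraries stood above all normoxic ones, as for 8.27% of mRNA features (7.01% had them all below). The log2 fold change was 1.21 (standard error 0.185, adjusted p = 1.56e-04 from edgeR), a 2.32-fold rise. A call as higher was made for 0.596% of mRNA features, and BNIP3 was called under each of the 13 alternatives run.

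BNIP3L, the closest relative of BNIP3 and likewise a mitophagy receptor, had 124, 141 and 136 normalized CPM in normoxia and 174, 176 and 161 in hypoxia. Its groups did not overlap either. The log2 fold change of 0.35 (standard error 0.114, 95% interval 0.12 to 0.58) did not pass the test (adjusted p = 0.169 from edgeR). The other tested relatives ranged from -0.47 for BCL2L12 to 0.27 for the effector BOK. BCL2L2, an anti-apoptotic member with a log2 fold change of -0.34, had 9 to 26 counts per library, beside 22 to 41 for the readthrough gene BCL2L2-PABPN1 that includes it, and how fragments of both were divided was not tested. BCL2A1, BCL2L10, BIK, BCL2L14 and BCL2L15 did not pass the filter.

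**Figure D4:**
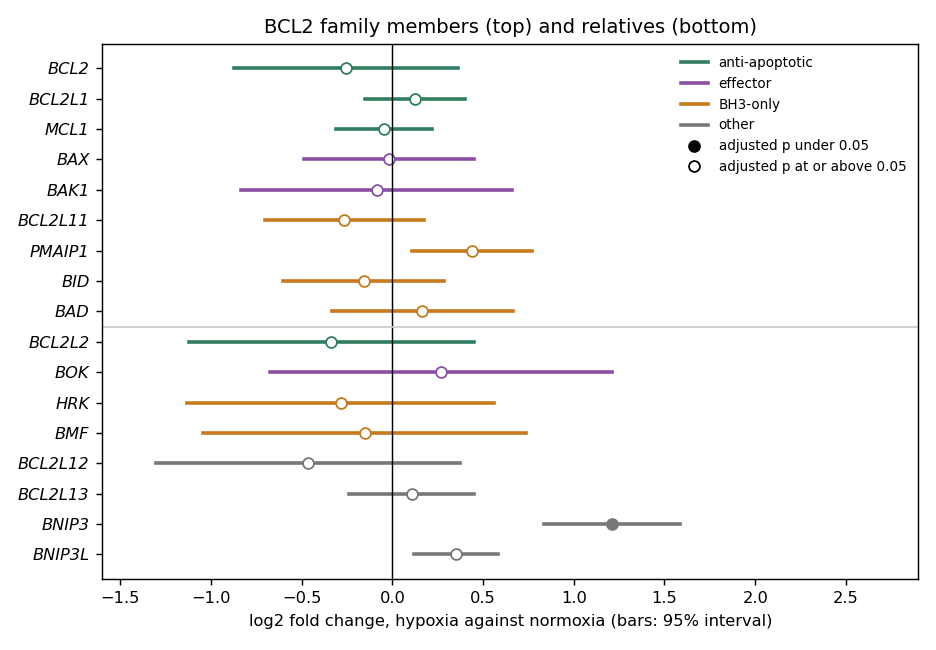
Log2 fold change (hypoxia against normoxia) with its 95% interval from edgeR for the 9 tested members (top) and 8 tested relatives (bottom), colored by role. The filled point, BNIP3 at 1.21, is the 1 gene with an adjusted p under 0.05, and the intervals of PMAIP1 and BNIP3L lie above 0 without passing.

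Of 28 genes of the apoptosis machinery, which act downstream of the family, parallel to it or as its partners, 24 were tested. Among these edgeR, DESeq2 and limma-voom each called 0. Of all mRNA features tested edgeR called 0.758%, so few calls among 24 genes would be usual. At an unadjusted p under 0.05 edgeR had 3, against 10.3% of all mRNA features, and the median log2 fold change was -0.06. BIRC3, an inhibitor of apoptosis that ubiquitinates signaling proteins below the TNF receptor, had 28.5, 23.8 and 29.8 normalized CPM in normoxia and 38.0, 42.1 and 41.0 in hypoxia. These groups did not overlap (log2 fold change 0.56, adjusted p = 0.245 from edgeR). The groups did not overlap for 5 of the 24, beside 15.3% of all mRNA features. BIRC3 and VDAC1 (0.07) were the 2 higher, and BIRC6 (-0.21), CFLAR (-0.15) and DFFA (-0.19) the 3 lower, as log2 fold changes that did not pass the test. Also under an unadjusted p of 0.05 were BIRC2, its close paralog, at 0.30 (adjusted p = 0.470 from edgeR) and TNFRSF10A, a receptor of the death ligand TRAIL, at 0.62 (adjusted p = 0.470). CYCS, which encodes cytochrome c, was at 0.06 and did not pass the test.

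Of 18 regulators and partners of the members, 17 were tested, 1 rose, 1 fell and 15 did not pass the test, beside 0.596% of all mRNA features called higher and 0.162% called lower. TRIB3, a pseudokinase induced by ATF4 and CHOP in stressed cells, rose from 9.72, 6.43 and 17.1 normalized CPM in normoxia to 34.9, 35.7 and 22.9 in hypoxia, with no overlap (log2 fold change 1.49, standard error 0.292, adjusted p = 0.00382 from edgeR). EPAS1, which encodes HIF-2α, fell (log2 fold change -0.64, standard error 0.116, adjusted p = 0.00151 from edgeR). Without hypoxia replicate 2 neither was called, with adjusted p of 0.0851 for TRIB3 and 0.0526 for EPAS1.

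ATF4, a transcription factor of the integrated stress response that is known to activate PMAIP1, had 179, 211 and 223 normalized CPM in normoxia and 288, 299 and 238 in hypoxia. The groups did not overlap, and the log2 fold change of 0.43 (standard error 0.111) lay just outside the threshold (adjusted p = 0.0516 from edgeR). It was called without normoxia replicate 2 (adjusted p = 0.0436 from edgeR) and without hypoxia replicate 3 (adjusted p = 0.0185), and also without the filter (adjusted p = 0.0316) and with the mRNA table alone (adjusted p = 0.0486). It was not called under the other 9 of its 13 alternatives, among them DESeq2 (adjusted p = 0.247), with adjusted p up to 0.413 without hypoxia replicate 2. DDIT3, which encodes CHOP and is known to raise BCL2L11, was at 0.66 (adjusted p = 0.475 from edgeR), and at 0.29 without normoxia replicate 2 and 1.22 without normoxia replicate 3.

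The same libraries measured miRNAs reported to target members. Of 21 listed, 19 were tested, 1 rose and 18 did not pass the test, where 2.06% of the 194 miRNAs tested were called higher and 2.58% in either direction. The groups did not overlap for 6 of the 19, all higher in hypoxia. Over all miRNAs tested the groups did not overlap for 17.0%, nearly all of these higher (16.0%), so the direction is shared by miRNAs outside the list. Those with an unadjusted p under 0.05 are shown with their seeds (bases 2 to 8) in capitals, from RefSeq in GRCh38.p14, grouped by seed and named with the member they are reported to target.
miR-181a-5p, BCL2: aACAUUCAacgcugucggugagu
miR-181b-5p, BCL2: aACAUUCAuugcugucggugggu
miR-15b-5p, BCL2: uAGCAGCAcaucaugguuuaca
miR-29a-3p, MCL1: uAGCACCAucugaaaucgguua
miR-125b-5p, BAK1 and BBC3: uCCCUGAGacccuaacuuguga
Both miR-181 species come from a pair of loci each, on chromosomes 1 and 9, and miR-125b-5p from loci on chromosomes 11 and 21, which the counts cannot separate.

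The 3′UTR stretches that hold the complement of these seeds are shown to place them in the members' transcripts, with the complement of the 7-base seed in capitals.
BCL2, miR-181: tgttagaagcaaTGAATGTat
BCL2, miR-15: tatccaatcctgTGCTGCTat
MCL1, miR-29: ctagtctaaccaTGGTGCTat
BAK1, miR-125b, first: tgcagttggactCTCAGGGat
BAK1, miR-125b, second: tgtctaggtctcCTCAGGGtg
In GRCh38 they lie on the minus strand at chr18:63125721-63125741, chr18:63126088-63126108, chr1:150576038-150576058, chr6:33573165-33573185 and chr6:33572712-33572732. The share of 18822 3′UTRs with the same letters on the transcript strand was 19.4% for TGAATGT, 22.3% for TGCTGCT, 14.8% for TGGTGCT and 15.3% for CTCAGGG. The miR-125b letters were not found in the 3′UTR of BBC3. A match gives the position of these letters only.

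miR-181a-5p had 107, 129 and 116 normalized CPM in normoxia and 192, 150.5 and 164 in hypoxia, with no overlap. It rose (log2 fold change 0.53, standard error 0.122, adjusted p = 0.0219 from edgeR), but was not called by DESeq2 (adjusted p = 0.118), with the miRNA table tested alone (log2 fold change 0.45, adjusted p = 0.306) or in 4 of the 6 fits with 1 library left out. Those 4 left out normoxia replicate 1 (adjusted p = 0.176 from edgeR), normoxia replicate 3 (0.0844), hypoxia replicate 1 (0.169) and hypoxia replicate 2 (0.0573). BCL2, its reported target, had the log2 fold change of -0.26 given above, which did not pass the test.

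miR-29a-3p was the next by p, with 439, 399.8 and 481 normalized CPM in normoxia and 566, 558 and 548 in hypoxia. The groups did not overlap, and the log2 fold change of 0.34 (standard error 0.0972) did not pass the test (adjusted p = 0.0925 from edgeR). miR-29b-3p, with the same seed and reported target, went the other way, at -0.56 on 7 to 17 counts per library (adjusted p = 0.686 from edgeR). MCL1, the reported target of both, was at -0.05. The log2 fold changes of miR-15b-5p, miR-181b-5p and miR-125b-5p were 0.29 (adjusted p = 0.338 from edgeR), 0.30 (adjusted p = 0.354) and 0.20 (adjusted p = 0.421). With the seed of miR-15b-5p, miR-16-5p was at 0.07 and miR-15a-5p at -0.03, and neither passed the test. Over all 19 the median log2 fold change was 0.09, beside 0.11 for all miRNAs tested.

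The genes whose pattern over the 6 libraries was most like that of PMAIP1 were UBXN2B, DCAF10 and WAC, with Pearson's r of log2 CPM of 0.992, 0.990 and 0.988 (n = 6 libraries, given as a description of the 3 highest among all mRNA features tested). Their log2 fold changes were 0.39, 0.22 and 0.28, and none passed the test (adjusted p = 0.680, 0.610 and 0.307 from edgeR). Each was lowest in normoxia replicate 1, as was PMAIP1, which follows largely from choosing them by this correlation. In these bulk libraries a lower count from fewer cells of a kind and one from less RNA per cell cannot be told apart.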

How the data were processed

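The deposited values were raw counts, in a table of mature miRNAs and a table of mRNA features in which 1 transcript stood for each gene. Per the study's methods and the labels, the authors trimmed the reads, set aside those of housekeeping small RNAs, aligned the rest to mature miRNAs, then precursors, then transcripts, and counted them with eXpress, leaving minor transcripts, pseudogenes and noncoding stretches of mRNAs out of their final analysis; the submitters' processing notes name Bowtie, Bowtie2 and hg38. A fragment that fits an earlier reference never reaches an mRNA count. Both tables were joined, features with low counts were removed with filterByExpr (11276 kept), libraries were scaled by TMM, and hypoxia was tested against normoxia with edgeR 4.0.16's robust quasi-likelihood fit in R 4.3.3, with Benjamini-Hochberg adjustment over all features kept. Normalized CPM used the TMM library sizes. Alternatives were DESeq2 1.42.0, limma-voom (limma 3.58.1), DESeq2 size factors, no filter, separate tables, a replicate block, a non-robust prior and each library left out. The non-robust prior, the alternatives for regulators and (other than the miRNA table alone) for listed miRNAs, the ratio with a library left out, the levels per coding kilobase, and the fits of BBC3 without the filter were chosen after seeing the data. The script was tested on simulated data. Named genes were all members and, from the other lists, those with an unadjusted p under 0.05 (at most 6 a list, by p), BNIP3, BNIP3L and the 3 features most correlated with the member of lowest p. Other genes named beside them (BOK, BCL2L12, BCL2L2, CYCS, VDAC1, BIRC6, CFLAR, DFFA) were chosen after their values were seen. The members and lists were chosen with earlier results of these data known. Some listed genes are not reported here. Coordinates come from GENCODE 44 (GRCh38).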

Additional observations from a re-analysis of the deposited data

How the results depend on the processing

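The 9 tested members kept their direction under each alternative that used all 6 libraries, and of 117 member alternatives 108 kept direction and side of the threshold, 1 was newly called (PMAIP1) and 8 reversed. All 8 reversals came with 1 library left out, where log2 fold changes ran from -0.0030 to 0.21 for BCL2L1 (lowest without hypoxia replicate 2), -0.10 to 0.031 for MCL1 (highest without hypoxia replicate 2), -0.14 to 0.071 for BAX (highest without normoxia replicate 1), -0.46 to 0.19 for BAK1 (highest without hypoxia replicate 2) and -0.41 to 0.078 for BID (highest without hypoxia replicate 3). With 1 library left out, members called higher ran from 0 to 1, regulators higher from 0 to 2 and lower from 0 to 1, target-reported miRNAs higher from 0 to 1, and mRNA features from 26 to 80 higher and 3 to 39 lower, against 66 and 18 with all libraries. DESeq2 called 35 mRNA features higher and 4 lower and 0 of the listed miRNAs, limma-voom 11 lower, and no filter 44 lower. Without the filter, and with the mRNA table alone, 2 regulators were higher, and with the miRNA table alone 0 of the listed miRNAs. The log2 change of the anti- to pro-apoptotic ratio was -0.10, -0.06 without MCL1, 0.12 without PMAIP1, and -0.17 to -0.02 with 1 library left out. The cause of these moves was not tested. Same-numbered replicates did not deviate together (r = -0.004, 0.003 and -0.095), and the replicate block called 60 mRNA features higher, 14 lower and 0 members, with PMAIP1 at 0.46 (adjusted p = 0.317 from edgeR). BCL2, BAK1 and BBC3 rested on 2 to 31 counts per library. The order of members by level changed below the first 3 when counts were divided by coding bases in place of the whole transcript.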
